A study of Mus musculus with 8 samples.

Results

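The 10 genes studied here encode enzymes of glycolysis below the entry of glucose, and their transcripts were measured in pancreatic islets of obese and weight-cycled mice. They were chosen by gene symbol, Gpi1, Pfkl, Pfkm, Aldoa, Tpi1, Gapdh, Pgk1, Eno1, Eno2 and Pkm, and make up 10 of the 35596 genes in the table. The symbol Aldoa stood at 2 gene IDs, so the 10 symbols matched 11 rows, and the row of ENSMUSG00000114515.2 held at most 0.181 TPM in any library and was left out of the tests. The islets came from male mice of the inbred strain C57BL/6J, with 4 libraries in each group. The obese group was fed 10% fat over 9 weeks, followed by 18 weeks on 60% fat. The weight-cycled group had 60% fat over 9 weeks, switched to 10% fat over 9 weeks and returned to 60% fat over 9 weeks. Both groups thus ended on the 60% fat diet, and the comparison asks how the order of the diets is reflected in islet transcripts. No lean group and no age is given in the labels. Whether every library comes from its own animal is not said in the labels. The p-values then cover only the spread among these libraries, which may be technical.

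Glycolysis splits glucose into pyruvate in the cytosol. In beta cells these enzymes carry the sugar phosphate on to pyruvate, whose oxidation in mitochondria raises ATP, closes the ATP-sensitive potassium channel and triggers insulin release. Phosphoglucose isomerase and phosphofructokinase prepare the sugar, aldolase and triose phosphate isomerase split it, and glyceraldehyde phosphate dehydrogenase, phosphoglycerate kinase, enolase and pyruvate kinase recover energy from the trioses. Several steps have isoenzymes encoded by separate genes, of which the muscle (Pfkm) and liver (Pfkl) forms of phosphofructokinase and the widespread (Eno1) and neuronal or endocrine (Eno2) forms of enolase are among the 10 genes.

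Values were TPM, a gene's abundance per transcript length as a share of its library. This unit keeps no record of depth, which is therefore unknown, and counting intervals cannot be set. Insulin transcripts took 75.4% to 78.8% of each library. The summed beta-cell markers lay at 785000 to 813000 TPM, a sum that is mostly insulin and says little of the other markers. Of the 10 beta-cell markers 6 were called lower, where 23.9% of all tested genes were, and 0 were at 0 in all libraries. Weight-cycled replicate 1 stood apart from its group on the first principal component, which held 66.8% of the variance. It scored -7.98 there, between the obese libraries (-23.3 to -5.03) and away from the other weight-cycled libraries (13.8 to 30.6). On the second component it was at 13.5, with weight-cycled replicates 2, 3 and 4 at 9.42, -2.64 and -9.68. The obese libraries were at -5.81 to 0.27 on that component. Across genes, which are no independent replicates, longer transcripts deviated upwards in all 4 obese libraries (Spearman's rho 0.216 to 0.469) and weight-cycled replicate 1 (0.427) and downwards in weight-cycled replicates 2 to 4 (-0.488 to -0.366). The median log2 fold change of the 8127 genes tested, those averaging 1 TPM or more, was -0.26. The enzymes are therefore given on TPM as deposited, after median-of-ratios scaling, and after the trend of each library with transcript length was taken out. Median-of-ratios scaling divides each library by its median ratio to the geometric means of the genes. It moves the median log2 fold change to -0.009. Other genes are given on TPM as deposited, with scaled values only where stated. In these bulk samples fewer cells of a type and less RNA per cell cannot be told apart.

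Gapdh and Pgk1 encode the enzymes of successive steps and differed in fold change, a contrast picked after the values were seen and not tested. The promoters of both are shown, with that of Pfkl, the gene with the lowest weight-cycled to obese ratio. Each runs from 250 bases before to 50 bases after the transcript start, 5′ to 3′ on the gene's strand, from RefSeq on build GRCm38.p6. Capitals mark ACGTG or its reverse complement, the core to which hypoxia-inducible factors bind and which the E-box CACGTG also contains. All 10 genes matched the RefSeq promoter table, with 18 start sites between them.
Gapdh (chr6:125165724-125166023, minus strand): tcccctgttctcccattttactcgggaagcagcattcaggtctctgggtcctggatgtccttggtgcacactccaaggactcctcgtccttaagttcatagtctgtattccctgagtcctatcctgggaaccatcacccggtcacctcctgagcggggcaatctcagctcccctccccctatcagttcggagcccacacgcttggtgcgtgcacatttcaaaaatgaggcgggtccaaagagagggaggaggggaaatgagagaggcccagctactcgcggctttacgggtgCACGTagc
Pgk1 (chrX:106186850-106187149, plus strand): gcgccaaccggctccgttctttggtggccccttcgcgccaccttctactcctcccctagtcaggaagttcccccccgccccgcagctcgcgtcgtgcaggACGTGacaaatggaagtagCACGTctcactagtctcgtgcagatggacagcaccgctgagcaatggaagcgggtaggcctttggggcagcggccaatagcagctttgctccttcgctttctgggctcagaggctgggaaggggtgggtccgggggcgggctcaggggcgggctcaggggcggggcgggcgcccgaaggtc
Pfkl (chr10:78009758-78010057, minus strand): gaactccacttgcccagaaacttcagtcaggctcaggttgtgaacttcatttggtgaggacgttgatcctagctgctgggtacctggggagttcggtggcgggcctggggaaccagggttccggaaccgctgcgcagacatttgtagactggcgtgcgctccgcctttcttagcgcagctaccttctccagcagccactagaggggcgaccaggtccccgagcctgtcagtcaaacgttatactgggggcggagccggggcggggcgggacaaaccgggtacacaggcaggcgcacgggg
The core stood at -150 and -131 from the Pgk1 start, at 42 in the Gapdh window and nowhere in the Pfkl window. Searched on both strands, it was in 7 of the 18 windows and in 19.6% of all 32851 promoter windows of that length. The windows with the core came from 5 of the 10 genes, Pfkm, Aldoa, Gapdh, Pgk1 and Pkm. Before a start it also lay in Aldoa (-126 and -202) and Pkm (-75), both called lower below, and in Pfkm (-136, -135 and -244). Some windows of the same gene overlap, and the Aldoa positions are the same site seen from different starts. The Pfkm positions -136 and -135 are the same CACGTG read on both strands. The GC box GGGCGG was in 9 of the 18 windows, among them overlapping windows of Aldoa and of Eno1, and in 35.7% of all windows. It had 5 matches in the Pgk1 window, 3 in that of Pfkl and 0 in that of Gapdh. The matches describe the letters of these windows and no binding was measured.

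Transcripts of 7 of the 10 enzymes were lower in weight-cycled islets, 0 were higher and 3 did not pass the test. The 7 were Pfkl, Aldoa, Tpi1, Gapdh, Eno1, Eno2 and Pkm, and their weight-cycled means lay between 62.3% and 75.3% of the obese means. Of all 8127 genes tested, 23.9% were called lower. The test was limma on log2(TPM + 1), run two-sided, and p-values were adjusted by Benjamini-Hochberg over all tested genes. Fold changes are weight-cycled minus obese on that scale. The median log2 fold change of the 10 enzymes was -0.48. After median-of-ratios scaling, 0 of the 10 were called lower (0.566% of all genes were), 4 had an unadjusted p under 0.05, 3 of them lower and Pgk1 higher, and the median was -0.16. After removal of the length trend 3 were called lower, Aldoa, Gapdh and Eno2 (1.95% of all genes were), and the median was -0.24. The calls on TPM also rested on the libraries entered: 9 of the 10 were lower without weight-cycled replicate 1, where 54.4% of all genes were, 7 without obese replicate 4, where 20.6% were, and 0 without any other single library, where 0% to 0.597% were.

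**Figure D1:**
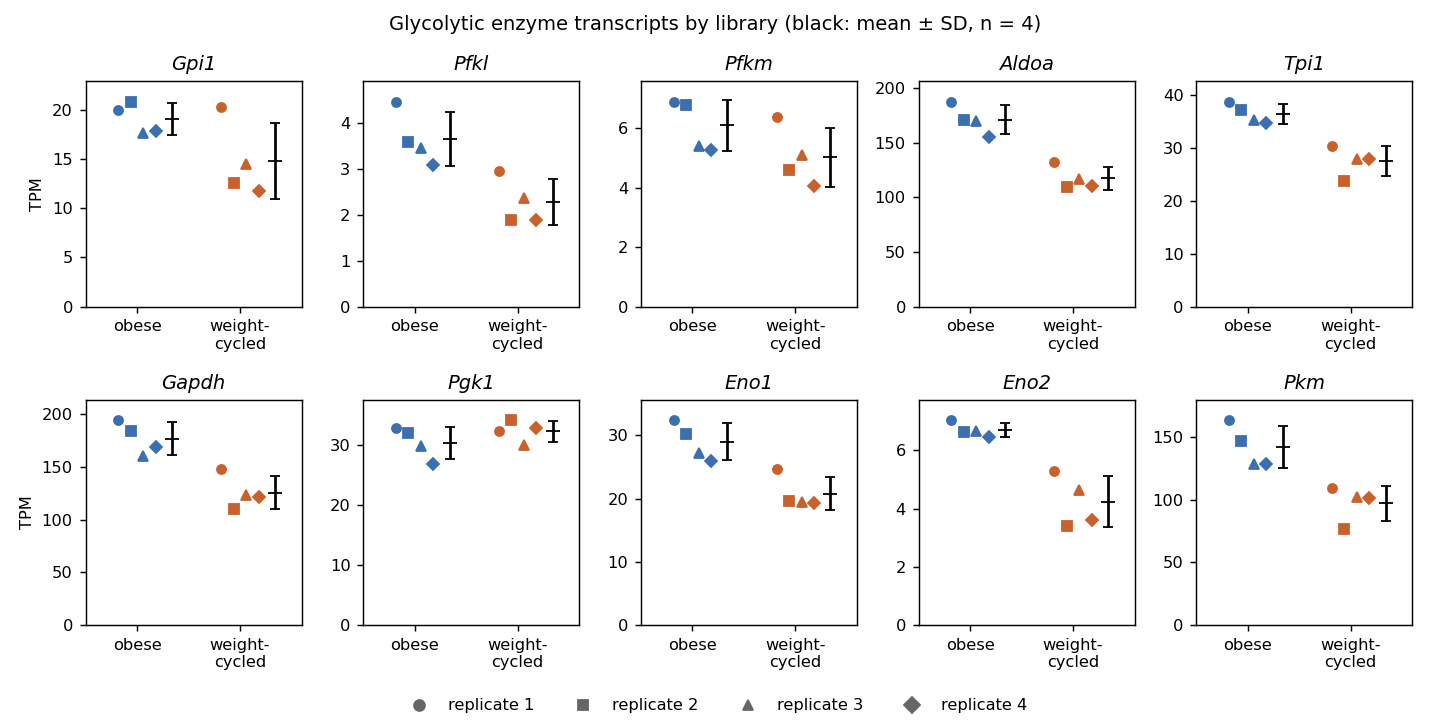
TPM of the 10 enzymes (y axes from 0, 1 panel per gene) in the 4 obese (blue) and 4 weight-cycled (orange) libraries, with symbols for replicate numbers and mean ± SD in black. Groups are apart in 7 panels and overlap for Gpi1, Pfkm and Pgk1, where the highest weight-cycled values are 20.4, 6.38 and 34.1 TPM.

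Phosphoglucose isomerase, encoded by Gpi1 (ENSMUSG00000036427.5, chromosome 7, 34201330 to 34230336, build mm10), turns glucose 6-phosphate into fructose 6-phosphate. Gpi1 was at 20.1, 20.9, 17.7 and 17.9 TPM in the obese libraries and at 20.4, 12.6, 14.6 and 11.8 TPM in weight-cycled replicates 1 to 4. Weight-cycled replicate 1 was within the obese range and the other 3 below it. The log2 fold change was -0.37 (SE 0.146, limma adjusted p = 0.0709), which did not pass, -0.06 after scaling (limma adjusted p = 0.700) and -0.10 after removal of the length trend (limma adjusted p = 0.530). Without weight-cycled replicate 1 it passed on TPM, at -0.52 (limma adjusted p = 0.00184), and not after scaling, at -0.14 (limma adjusted p = 0.167).

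Phosphofructokinase commits the sugar to glycolysis, and its subunits come from Pfkm, Pfkl and Pfkp. Pfkl (ENSMUSG00000020277.10, chromosome 10, 77986947 to 78010083) was at 4.46, 3.59, 3.45 and 3.08 TPM in obese and at 2.95, 1.89, 2.36 and 1.88 TPM in weight-cycled islets. The groups did not overlap, though weight-cycled replicate 1 came close to obese replicate 4. The log2 fold change of Pfkl was -0.51 (SE 0.135, limma adjusted p = 0.0345), -0.27 after scaling (limma adjusted p = 0.0854) and -0.20 after removal of the length trend (limma adjusted p = 0.119). Pfkm (ENSMUSG00000033065.14, chromosome 15, 98092589 to 98132451) was at 6.90, 6.79, 5.40 and 5.27 TPM in obese and at 6.38, 4.58, 5.09 and 4.04 TPM in weight-cycled islets. Its groups overlapped, its fold change of -0.24 did not pass (SE 0.136, limma adjusted p = 0.165), and it became positive, at 0.04, with median-of-ratios scaling, 0.02 after quantile scaling and 0.03 after removal of the length trend.

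Dividing a whole library by a factor leaves the ratio of the 2 phosphofructokinase genes as it is, though removal of the length trend took the difference below from 0.407 to 0.300. The log2 ratio of Pfkm to Pfkl was 0.63, 0.92, 0.64 and 0.77 in obese and 1.11, 1.28, 1.11 and 1.101 in weight-cycled islets. Each weight-cycled library was above each obese one, weight-cycled replicate 1 included, and the difference was 0.41 on the log2 scale (exact permutation test over 70 assignments, two-sided, p = 0.0286, the smallest p the design allows). Adjusted over the 2 isoenzyme ratios tested, p was 0.0571, which misses the threshold. Both ratios were chosen with earlier results of these data known, which these p-values do not allow for. The geometric mean ratio came to 1.67 for obese and 2.22 for weight-cycled islets. As a share of Pfkm, Pfkl and Pfkp transcripts together, Pfkm took 48.4% ± 2.06 in the obese group and 56.2% ± 2.74 in the weight-cycled group (SD, n = 4 each). Pfkl took 28.9% ± 1.56 and 25.3% ± 1.25, and Pfkp, the platelet form, 22.7% ± 1.11 and 18.4% ± 3.30. For Pfkp weight-cycled replicate 1, at 23.2%, was among the obese libraries (21.2% to 23.8%).

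Aldolase cleaves fructose 1,6-bisphosphate into trioses. Aldoa (ENSMUSG00000030695.16, chromosome 7, 126795234 to 126800751) was at 188, 171, 169.9 and 156 TPM in obese and at 133, 109, 117 and 111 TPM in weight-cycled islets. All obese libraries were above all weight-cycled ones. Its log2 fold change was -0.54 (SE 0.0950), with the smallest p of the 10 enzymes (limma adjusted p = 0.0247), and -0.21 after scaling (limma adjusted p = 0.153) and -0.38 after removal of the length trend (limma adjusted p = 0.0260).

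Triose phosphate isomerase interconverts the trioses of the split sugar. Tpi1 (ENSMUSG00000023456.15, chromosome 6, 124810586 to 124814296) was at 38.8, 37.3, 35.3 and 34.7 TPM in obese and at 30.5, 23.7, 27.9 and 28.0 TPM in weight-cycled islets. Its groups were apart, and the log2 fold change was -0.40 (SE 0.0947, limma adjusted p = 0.0322). Of the 7 called enzymes it lay nearest to the median of all genes after scaling, at -0.08 (limma adjusted p = 0.504), and it was at -0.24 after removal of the length trend (limma adjusted p = 0.0611). Tpi1 stands 40912 bases from Eno2, and both lie with Gapdh in a stretch of 406415 bases on chromosome 6.

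Glyceraldehyde phosphate dehydrogenase oxidises the triose and is often used as a reference transcript. Gapdh (ENSMUSG00000057666.18, chromosome 6, 125161715 to 125166467) was at 195, 184, 161 and 169 TPM in obese and at 148, 110.4, 123 and 121 TPM in weight-cycled islets. The lowest obese library was above the highest weight-cycled one, and the log2 fold change was -0.50 (SE 0.107, limma adjusted p = 0.0303), -0.17 after scaling (limma adjusted p = 0.234) and -0.36 after removal of the length trend (limma adjusted p = 0.0458).

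Gapdh has many processed copies in the mouse genome, and reads of near-identical copies are shared by estimate. Of 187 genes in the table with a transcript at least 90% identical to a Gapdh transcript over at least 300 bases, 76 held TPM above 0 and only Gm10359 a mean of at least 1. Gm10359 (ENSMUSG00000094708.1), annotated as a processed pseudogene, was identical to Gapdh over all of its 1002 bases. It was at 48.6, 42.4, 41.0 and 29.98 TPM in obese and at 30.4, 27.9, 27.8 and 27.4 TPM in weight-cycled islets. Gapdh and its copies together came to 247, 231, 204 and 203 TPM in the obese libraries and 182, 146, 153 and 150.2 TPM in the weight-cycled ones, of which the copies took 17.0% to 24.2%. For the summed values the log2 fold change was -0.49 (SE 0.103, limma adjusted p = 0.0303), and -0.16 after scaling (limma adjusted p = 0.270). For each of the other 9 enzymes the copies found the same way summed to at most 0.574% of the enzyme's own TPM.

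**Figure D2:**
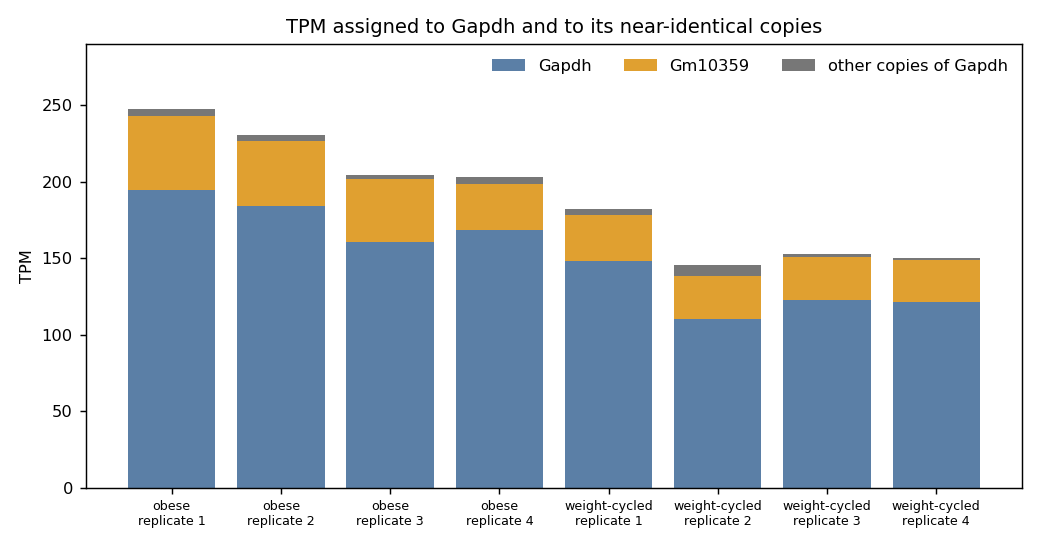
Stacked bars of TPM assigned to Gapdh (blue), to Gm10359 (yellow) and to its other near-identical copies (grey) in each of the 8 libraries (y axis from 0). The stacked totals run from 203 to 247 TPM in the obese libraries and from 146 to 182 TPM in the weight-cycled ones.

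Phosphoglycerate kinase makes the first ATP of the pathway, and Pgk1 was the 1 enzyme gene of the 10 with a fold change above 0 on TPM. Pgk1 (ENSMUSG00000062070.12, chromosome X, 106187100 to 106203699) was at 32.7, 32.0, 29.7 and 26.8 TPM in obese and at 32.3, 34.1, 29.9 and 32.8 TPM in weight-cycled islets. The groups overlapped, and the log2 fold change was 0.09 (SE 0.0914, limma adjusted p = 0.430). Pgk1 had a fold change above that of 91.2% of tested genes. After median-of-ratios scaling the libraries were at 26.8, 26.9, 27.5 and 26.3 in obese and 30.6, 43.4, 32.9 and 38.8 in weight-cycled islets, with no overlap. The scaled log2 fold change was 0.41 (SE 0.11, limma adjusted p = 0.07), and of the single libraries only leaving out weight-cycled replicate 1 brought it past the threshold (0.49, limma adjusted p = 0.00612). After removal of the length trend it was 0.28 (limma adjusted p = 0.0651).

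Set against the geometric mean of the other 9 enzymes in the same library, a comparison chosen after the values were seen and so given with no test, Pgk1 stood at 1.03, 1.08, 1.104 and 1.03 times that mean in obese and at 1.31, 1.94, 1.46 and 1.78 times in weight-cycled islets. The 2 groups did not overlap, and weight-cycled replicate 1 was the lowest of its group. Pgk1 ranked after Tpi1 in the obese libraries, at means of 30.3 and 36.5 TPM, and before it in the weight-cycled ones, at 32.3 and 27.5 TPM. Of the annotated copies of Pgk1 in the table, all 4 were listed at 0 in each library.

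**Figure D3:**
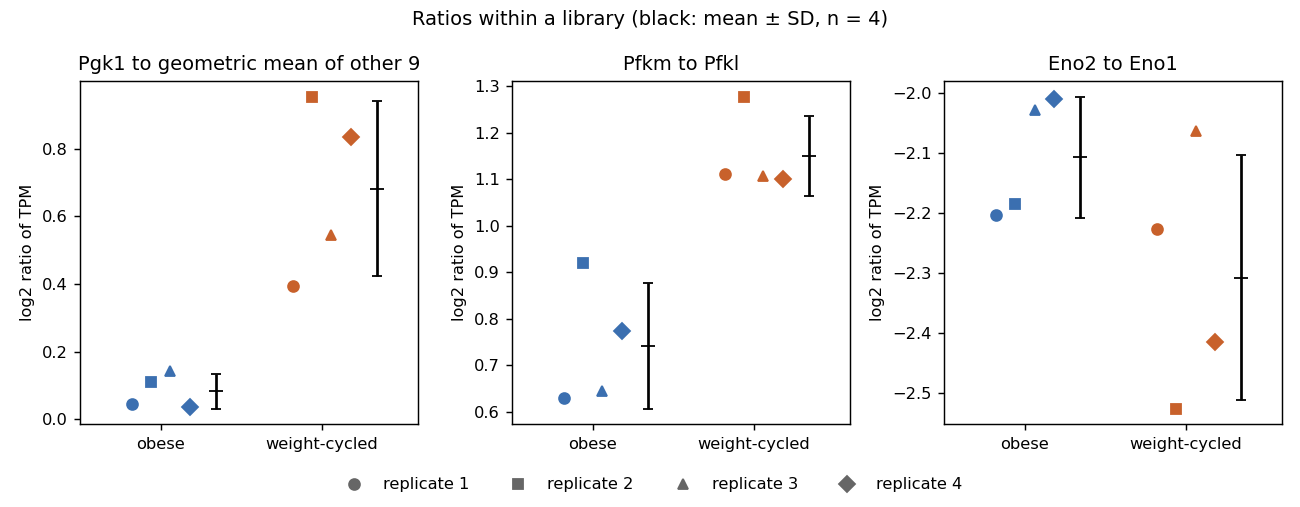
Log2 ratios of TPM within each library, for Pgk1 to the geometric mean of the other 9 enzymes, Pfkm to Pfkl, and Eno2 to Eno1, with obese libraries in blue, weight-cycled in orange and mean ± SD in black. The y axes do not start at 0. The groups are apart in the first and second panels, at 0.04 to 0.14 against 0.39 to 0.95 for Pgk1, and overlap in the third.

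Enolase converts 2-phosphoglycerate to phosphoenolpyruvate. Eno1 (ENSMUSG00000063524.13, chromosome 4, 150236721 to 150248879) was at 32.4, 30.2, 27.3 and 26.0 TPM in obese and at 24.7, 19.7, 19.5 and 19.2 TPM in weight-cycled islets. Weight-cycled replicate 1 came closest to the obese range without entering it, and the log2 fold change was -0.46 (SE 0.108, limma adjusted p = 0.0322), -0.14 after scaling (limma adjusted p = 0.224) and -0.25 after removal of the length trend (limma adjusted p = 0.0652). Eno2 (ENSMUSG00000004267.16, chromosome 6, 124760053 to 124769673), a marker of neuroendocrine cells, was at 7.04, 6.64, 6.68 and 6.45 TPM in obese and at 5.28, 3.42, 4.66 and 3.61 TPM in weight-cycled islets. The groups did not overlap, and Eno2 had the lowest fold change of the 10 enzymes on TPM, -0.57 (SE 0.123, limma adjusted p = 0.0303), and after scaling, -0.30 (limma adjusted p = 0.07). After removal of the length trend Eno2 was at -0.30 (limma adjusted p = 0.0478).

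A difference in the balance of the enolases did not pass the test. The log2 ratio of Eno2 to Eno1 was -2.20, -2.18, -2.03 and -2.01 in obese and -2.23, -2.53, -2.06 and -2.42 in weight-cycled islets, a difference of -0.20 (exact permutation test, two-sided, p = 0.114, also when adjusted over the 2 ratios). Weight-cycled replicate 3 was within the obese range, and the other 3 weight-cycled libraries were below it. Without single libraries the difference ran from -0.283, without weight-cycled replicate 3, to -0.128, without weight-cycled replicate 2. With a library left out, p cannot pass the threshold. Eno1 made up 77.2% to 83.3% of Eno1, Eno2 and Eno3 transcripts over the 8 libraries.

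Pyruvate kinase ends the pathway and makes the second ATP. Pkm (ENSMUSG00000032294.17, chromosome 9, 59656368 to 59679375) was at 164, 147, 128 and 128 TPM in obese and at 109, 77.0, 102 and 101 TPM in weight-cycled islets. The groups did not overlap, weight-cycled replicate 2 was the lowest library, and the log2 fold change was -0.54 (SE 0.123, limma adjusted p = 0.0321), -0.22 after scaling (limma adjusted p = 0.172) and -0.30 after removal of the length trend (limma adjusted p = 0.0663). Pkm took 98.2% to 99.03% of the transcripts of Pkm and Pklr, the liver and red cell form. The table gives 1 value per gene, so the splice forms of Pkm were not told apart.

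**Figure D4:**
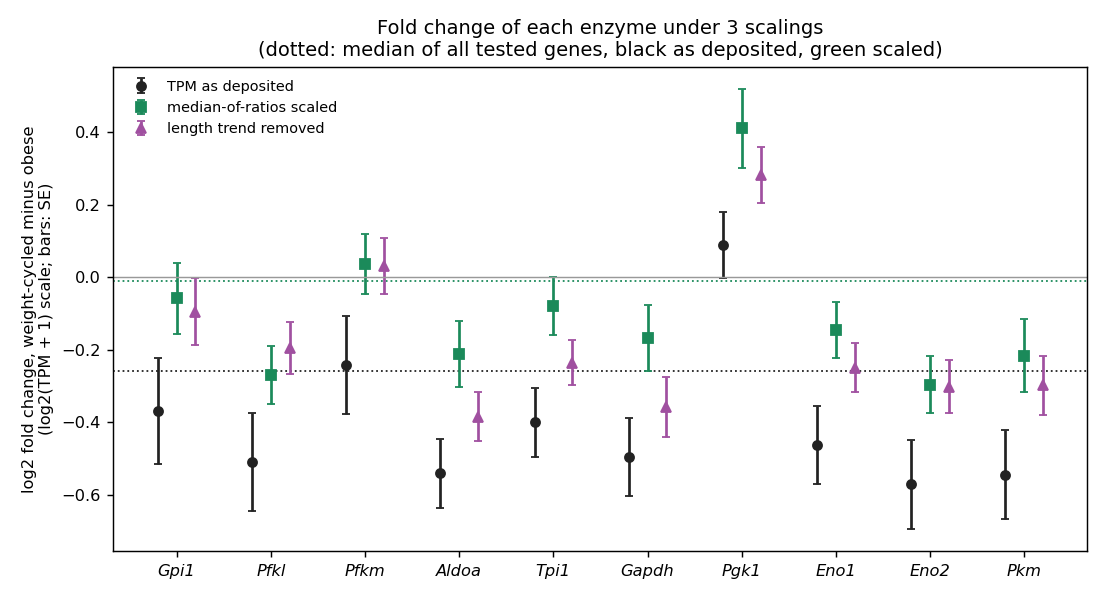
Log2 fold change of each enzyme, weight-cycled minus obese, on TPM as deposited (black), after median-of-ratios scaling (green) and after removal of the length trend (purple), with SE. Dotted lines mark the median of all tested genes, -0.26 as deposited and -0.009 scaled. Pgk1 is above 0 in all 3, and Pfkm changes sign between them.

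Levels differed more between enzymes than between groups. In obese islets the order by TPM, which is per length, was Gapdh (177 ± 15.3), Aldoa (171 ± 13.1), Pkm (142 ± 16.9), Tpi1 (36.5 ± 1.88), Pgk1 (30.3 ± 2.66), Eno1 (29.0 ± 2.90), Gpi1 (19.1 ± 1.61), Eno2 (6.71 ± 0.248), Pfkm (6.09 ± 0.872) and Pfkl (3.65 ± 0.581; SD, n = 4 each). Neighbours whose ranges overlapped were Gapdh and Aldoa, Aldoa and Pkm, Pgk1 and Eno1, and Eno2 and Pfkm. Gapdh, Aldoa and Pkm held 78.5% to 79.3% of the summed TPM of the 10 enzymes in obese and 74.8% to 76.7% in weight-cycled islets. That sum was 688, 640.1, 584 and 573 TPM in obese and 512, 397, 446 and 434 TPM in weight-cycled libraries. As a share of TPM outside insulin it was 0.255% to 0.305% and 0.177% to 0.230%. After scaling the sums were closer, at 539 to 565 and 486 to 514, and the groups still did not overlap. No test was made on these sums.

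The highest library of each group was the same for most of the enzymes. Obese replicate 1 was the highest obese library for 9 of the 10 enzymes, all but Gpi1, and obese replicate 4 the lowest for 7. Weight-cycled replicate 1 was the highest of its group for 9, all but Pgk1, and reached the obese range for Gpi1, Pfkm and Pgk1. The lowest weight-cycled library varied, with replicate 2 lowest for 5 enzymes, replicate 4 for 4 and replicate 3 for 1. Every weight-cycled library lay below every obese one for 7 of the 10 enzymes, as it did for 21.1% of all tested genes. The size factors of median-of-ratios scaling ran from 1.02 to 1.22 in obese and from 0.786 to 1.05 in weight-cycled libraries, with obese replicate 1 and weight-cycled replicate 1 the highest of their groups. Their part in the fold changes beyond the scaled values above was not tested.

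The profile of an enzyme over the 8 libraries was compared with the mean centred log2(TPM + 1) profile of the 10. Eno1, at a root mean square difference of 0.0542, Gapdh (0.0595) and Tpi1 (0.0639) were nearest to that mean, and Pgk1 (0.280) was farthest. The search for like profiles covered 2018 other genes with a mean of at least 10 TPM. It left out the 6 lists of glucose metabolism below, genes without a symbol and gene models with provisional names. The 5 nearest profiles included those of Rbbp7 (0.0157), Nipsnap2 (0.0305), Ube2e3 (0.0319) and Pfn1 (0.0326), with log2 fold changes of -0.42 to -0.36. These profiles are a description over 8 libraries that share their scaling.

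The other genes of glucose metabolism were taken from 6 lists with 61 genes, of which 39 had a mean TPM of at least 1. Of the 39, 15 were lower, 1 was higher and 23 did not pass, where 23.9% of all tested genes were lower and 1.21% higher, with a median log2 fold change of -0.29 against -0.26 over all tested genes and -0.48 over the 10 enzymes. After scaling 2 of the 39, Slc2a2 and Gpd2, were lower and 1, Txnip, higher, where 0.566% of all tested genes were lower and 1.24% higher, and the median was -0.07. The counts per list below are on TPM and stand against the same 23.9% lower, so that 2 of 11 is no larger a share than that of all genes.

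In a list of other isoenzymes and of the mutase step, which none of the 10 enzymes covers, 5 of 12 genes were tested, 3 were lower and 2 did not pass. Pklr averaged 2.38 ± 0.12 TPM in the obese and 1.28 ± 0.220 TPM in the weight-cycled libraries (SD, n = 4), and its log2 fold change was -0.57 (SE 0.106, limma adjusted p = 0.0247). Pfkp had a fold change of -0.54 (limma adjusted p = 0.0437), but its groups overlapped at weight-cycled replicate 1. Pgam1, the phosphoglycerate mutase between Pgk1 and the enolases, went from 45.3 ± 3.17 to 36.9 ± 2.43 TPM (SD, n = 4), a fold change of -0.29 (limma adjusted p = 0.0421) that turned to 0.035 after scaling. Aldoc was at -0.29 (limma adjusted p = 0.0806). Pgam2 and Pgk2 were listed at 0 in each library, and Eno3 reached at most 1.23 TPM.

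Upstream of the 10 enzymes, 3 of 9 genes of glucose entry and phosphorylation were tested. Slc2a2, the main glucose transporter of mouse beta cells, was lower at -1.10 (SE 0.176, limma adjusted p = 0.0165) and -0.78 after scaling (limma adjusted p = 0.0393). G6pc2, which removes phosphate from glucose 6-phosphate, was at 471 ± 64.9 and 451 ± 34.4 TPM (SD, n = 4; limma adjusted p = 0.711). The low-Km hexokinase genes Hk1, Hk2 and Hk3 were at or under 0.695 TPM in each library.

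Genes that set the activity of phosphofructokinase included 2 lower genes of 3 tested. Pfkfb2, which makes and removes the activator fructose 2,6-bisphosphate, was at -0.65 (SE 0.170, limma adjusted p = 0.0345) with groups that overlapped at weight-cycled replicate 1, and Tigar, a bisphosphatase that lowers the same activator, at -0.48 (SE 0.128, limma adjusted p = 0.0353). Fbp1, a gluconeogenic phosphatase, was at -0.29 (limma adjusted p = 0.177).

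Downstream of pyruvate kinase, 2 of 11 tested genes of pyruvate and lactate metabolism were lower. Pcx, pyruvate carboxylase, had a fold change of -0.59 (SE 0.148, limma adjusted p = 0.0337), and Dlat, a subunit of pyruvate dehydrogenase, one of -0.57 (SE 0.175, limma adjusted p = 0.0422) with groups that overlapped. Pdha1 (limma adjusted p = 0.0501) and Pdk2 (0.0686) did not pass. Ldha, lactate dehydrogenase A, which beta cells keep low, was at 2.65 ± 0.448 and 2.18 ± 0.489 TPM (SD, n = 4; limma adjusted p = 0.239), and the lactate transporter genes Slc16a1 and Slc16a3 were at or under 0.0734 TPM in each library. Of 11 genes of side branches 5 were lower, among them Gpd2, the mitochondrial glycerol phosphate dehydrogenase, at -0.80 (SE 0.144, limma adjusted p = 0.0247), Rpia at -0.60, Tkt at -0.43 and G6pdx at -0.36 of the pentose phosphate pathway, and Taldo1 at -0.27, which turned to 0.06 after scaling.

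Of 6 tested regulators of the pathway, 1 was lower and 1 higher. Mlxipl, the carbohydrate response factor ChREBP, was at -0.76 (SE 0.203, limma adjusted p = 0.0353), though its groups overlapped, and Txnip, one of its known targets, averaged 63.0 ± 14.0 TPM in the obese and 137 ± 29.7 TPM in the weight-cycled libraries (SD, n = 4), a fold change of 1.12 (limma adjusted p = 0.0184). Hif1a, the oxygen-regulated subunit of hypoxia-inducible factor, was at -0.44 (limma adjusted p = 0.0580) and its partner Arnt at -0.27 (limma adjusted p = 0.163).

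**Figure D5:**
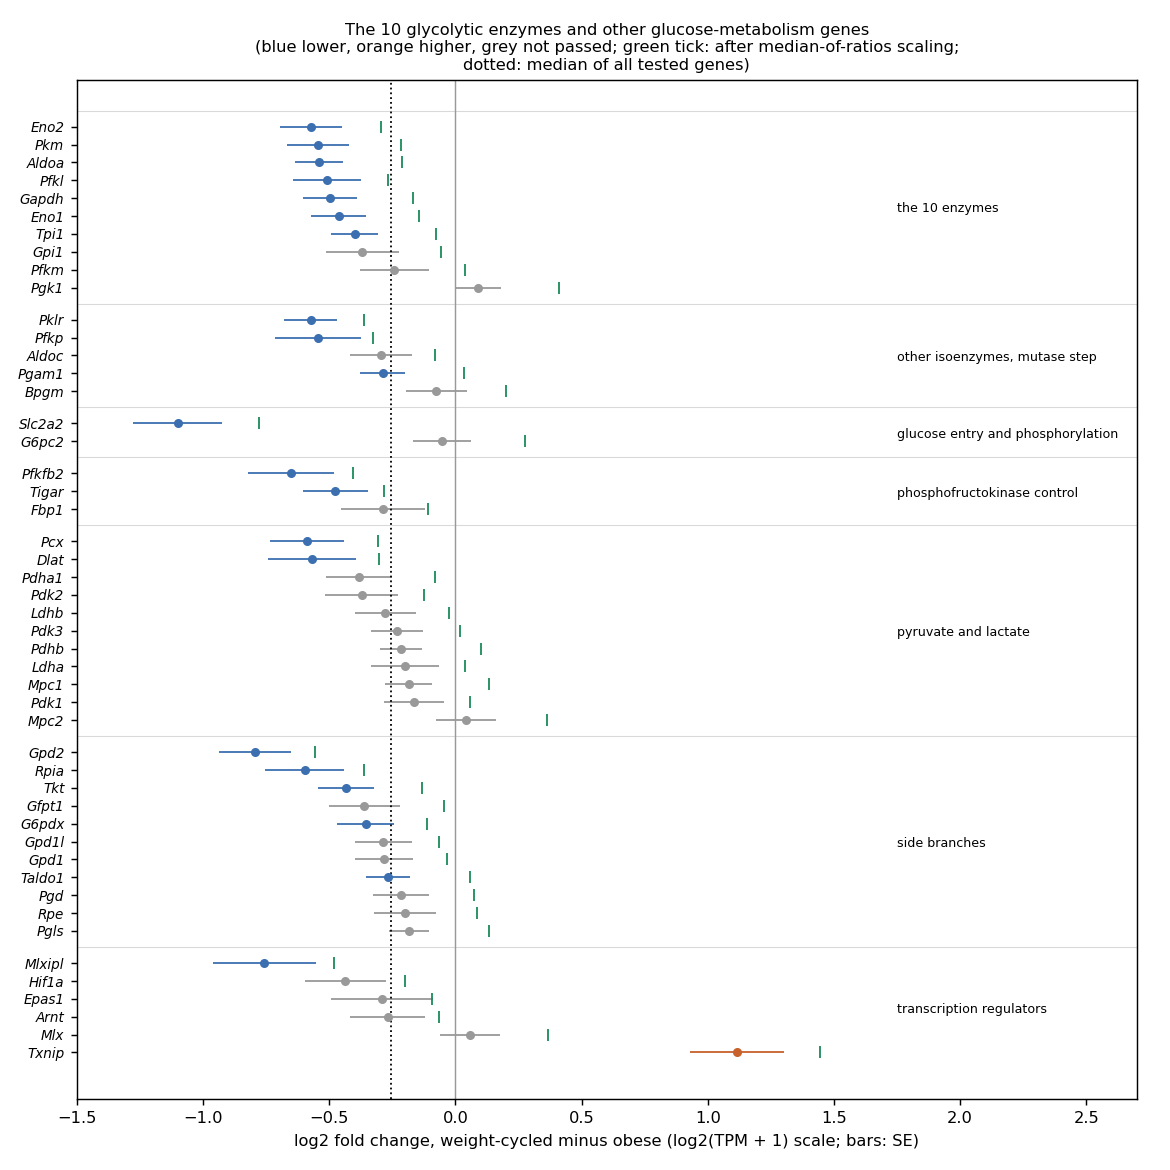
Log2 fold change with SE, weight-cycled minus obese, on TPM as deposited for the 10 enzymes and the tested genes of the 6 lists that are reported here, coloured blue (lower), orange (higher) or grey (not passed), with a green tick for the value after median-of-ratios scaling. The dotted line is the median of all tested genes (-0.26). Most points lie left of 0, with Txnip at 1.12 on the right, and 5 of the 11 side-branch genes are called lower.

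Markers of other cells were measured beside the enzymes. Their counts are on TPM as deposited, where 23.9% of all tested genes were called lower and 1.21% higher. A count of 2 of 8 is close to that share of lower genes. Calls after scaling are not given for the markers. Summed macrophage markers were at 54.1 to 68.2 TPM in obese and 41.7 to 52.1 TPM in weight-cycled islets, with 3 of 5 tested genes lower. Summed endothelial markers were at 43.5 to 73.4 and 28.2 to 54.0 TPM (2 of 8 tested genes lower), duct markers at 105 to 129 and 97.4 to 126 TPM (2 of 5 lower), and stromal markers at 12.3 to 17.4 and 7.66 to 17.2 TPM (0 of 2 called). Acinar markers were at 2540 to 4690 and 3220 to 7480 TPM (0 of 10 called), red blood cell markers at 527 to 952 and 467 to 826 TPM (0 of 4), alpha-cell markers at 4570 to 12300 and 3120 to 8530 TPM (2 of 7 higher), and delta- and PP-cell markers at 5030 to 12100 and 5610 to 9850 TPM (0 of 5). No marker of these lists was at 0 in all 8 libraries. The part of these cells in their values was not tested.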

How the data were processed

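RNA sequencing measured polyadenylated transcripts of islets in 8 libraries. The authors deposited TPM for each gene. The submitters' processing notes name Salmon 1.5.2 and mm10. Which annotation was used, and how transcripts were summed to genes, is not given in the sources used here. Of 35596 genes, 99.8% had a symbol. Coordinates and transcript lengths (the longest coding transcript) came from GENCODE M21 on GRCm38, which mm10 names.

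Genes whose TPM averaged at least 1 entered a limma fit (version 3.58.1, R 4.3.3, eBayes with trend) on log2(TPM + 1), which compresses changes of low genes, at an adjusted p of 0.05. All 10 enzymes passed the filter. Isoenzyme ratios were compared by exact permutation. Copies of the enzymes were sought with blastn. The limma fit was also run on simulated data, with noise drawn separately for each gene and library. That simulation holds no shift shared by the genes of a library, so it cannot vouch for the calls made here. The 10 enzymes, the 6 lists, the tests and the alternatives were chosen with earlier results of these data known. Named beside the 10 enzymes were up to 4 genes of smallest p per list, Slc2a2 and the 5 nearest profiles, and others in a count of 5 or fewer or singled out (Taldo1, Ldha, Eno3, Pgam2, Pgk2, Slc16a1, Slc16a3, Hk1, Hk2, Hk3) after their values were seen. Alternatives were other pseudocounts, filters, scalings, variance models, the replicate number as a block, and leaving out each library. Summing Gapdh with its copies was chosen after seeing the data. Results for a few genes the rule would name are not reported here.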

Additional observations from a re-analysis of the deposited data

Results flagged for a closer look

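Dixon's ratio, which picks out 1 value distant from the rest, was computed for 80 groups of 4 libraries, and 5 exceeded its critical value where chance gives 4 (1 in 20). Weight-cycled replicate 1 held Eno1 at 24.7 TPM, and the 3 libraries beside it 19.2 to 19.7 TPM. In the same library Pfkp was at 2.82 TPM against 1.28 to 1.40, and Gm10359, the Gapdh copy, at 30.4 TPM against 27.4 to 27.9. In weight-cycled replicate 2, Pgam1 was at 33.3 TPM against 37.9 to 38.4, and the log2 ratio of Pfkm to Pfkl at 1.28 against 1.1 to 1.11.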

How the results depend on the processing

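The 7 enzymes called lower kept a fold change below 0 in each alternative run, but not the call. The count became 0 with no filter (0 of 19482 genes called by limma, 5686 at an unadjusted p under 0.05, 8 of the 10 enzymes among them), 3 after quantile scaling, 3 after removal of the length trend, and 0 after median-of-ratios scaling, alone or with the replicate block. Leaving out each library gave 0 to 9, or 0 to 2 after median-of-ratios scaling. The total of 2044 genes called became 0 with no filter, 1080 with a filter at a mean TPM of 5, which also leaves Pfkl untested, 147, 297 and 367 with the 3 scalings in the order median-of-ratios, quantile and length, 4795 with array weights, 449 with median-of-ratios scaling and the replicate block, and 0 to 4660 without single libraries (0 to 3053 after median-of-ratios scaling). The causes were not tested.

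The replicate number as a block gave 8 enzymes lower, Gpi1 added (limma adjusted p = 0.0441), and 2903 genes in all. The deviations of same-numbered libraries from their group means had correlations of 0.210, -0.276, -0.0520 and 0.231. The labels do not say what the number stands for, and these correlations cannot show whether same-numbered libraries shared a batch. The Pfkm to Pfkl difference of 0.407 had an exact p of 0.125 over the 4 numbered pairs, the smallest that test can give, and was 0.365 to 0.467 without single libraries, where p cannot pass the threshold. The fold change of Pfkm turned to 0.037 (median-of-ratios, with or without the block), 0.022 (quantile) and 0.032 (length), and with median-of-ratios scaling to 0.055, 0.060, 0.008 and 0.021 without obese replicates 1 to 4 and 0.021, 0.038 and 0.101 without weight-cycled replicates 2 to 4. That of Gpi1 turned to 0.014 with scaling and without weight-cycled replicate 4. Depth is unknown, so the precision of the low genes, Pfkl and Pfkm among them, could not be set apart from library spread.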
